A study of Mus musculus with 6 samples.

Results

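The genes described here encode the proteins of the cytosolic ribosome, together with their paralogues, and the muscle paralogue *Rpl3l* received particular attention. They were chosen by symbol alone: all protein-coding genes of the count table whose GENCODE M21 symbol is *Rpl* or *Rps* followed by a number (with an optional suffix such as a, x or l), plus *Rplp0*, *Rplp1*, *Rplp2* and *Rpsa*. This gave 84 genes of 56262, of which 77 are canonical subunit genes (46 of the large and 31 of the small subunit) and 7 are paralogues (*Rpl3l*, *Rpl7l1*, *Rpl10l*, *Rpl22l1*, *Rpl36al*, *Rpl39l* and *Rps27l*). *Rps4l*, *Rpl6l* and 4 other genes match the symbol pattern but are not annotated as protein-coding and were left out. RNA-seq was made from leg muscle of mouse fetuses at embryonic day 18.5, with 3 wild-type (WT) samples and 3 samples of *SYISL* knockout (KO) fetuses. *SYISL* is a long noncoding RNA transcribed from within an intron of *Synpo2*. Parents had the same genotype as their fetuses, so the genotype of the mother and that of the fetus cannot be told apart, and WT animals came from a university animal centre whereas the KO line was the authors' own. The strain is not given in the sources used here, nor is it stated whether each sample came from a separate fetus or litter, so the p-values measure the spread between these samples.

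Each cytosolic ribosome joins a small subunit, which reads the mRNA, to a large subunit, which forms the peptide bond and carries the exit tunnel of the growing chain. Subunit genes are expressed in every cell and are known to be regulated together, and many of their mRNAs begin with a tract of pyrimidines through which growth signals control their translation. *Rpl3l* is known from heart and skeletal muscle, where its product can take the place of the *Rpl3* product near the peptidyl transferase centre.

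The samples held 82054811 to 102233181 counts, and the limit that a count of 0 allows (3 counts of the total, counting error only) was 0.0293 to 0.0366 CPM (counts scaled to a library of fixed size, as defined with the processing). No gene of the table carries the name *SYISL*, so the deletion itself was not checked here, and the host gene *Synpo2* stood at 136 ± 4.21 CPM in the WT samples and at 214 ± 18.9 CPM in the KO samples (SD, n = 3). Muscle fiber markers were present in every sample, but the libraries also differed in other cell types. Summed over 14 keratinocyte markers, the level ranged from 18788 to 27726 CPM in WT against 864 to 997 CPM in KO, and all 14 were lower in KO. Summed over 8 erythroid markers it ranged from 3948 to 5191 CPM in WT against 548 to 669 CPM in KO, with all 8 lower, and no marker of either list was at 0. The 10 muscle fiber markers summed to 20412 to 22903 CPM in WT against 43543 to 53470 CPM in KO, with 9 higher, and the 8 markers of mature muscle to 689 to 793 CPM and 2145 to 2752 CPM, with all 8 higher. Of 8 proliferation markers, 7 were lower (median -0.23), and of 6 markers of myogenic progenitors 3 were lower and 1 was higher. Of 6 fibroblast markers 5 were higher, and of 5 cartilage markers 3 were lower and 2 were higher. Lower and higher here mean an adjusted p under 0.05 in the fit described below. By that rule 23.1% of all genes tested were lower and 21.9% were higher. WT replicate 1 held 140 counts of *Xist* and 2049 to 5455 counts of each of 4 Y-linked genes, WT replicate 2 and KO replicate 1 held 0 to 4 counts of each Y-linked gene, and the other 3 libraries held both in quantity. The labels do not say whether a sample pools several fetuses, and if these 3 libraries do, an SD over 3 samples is not a spread between single fetuses. In bulk tissue, fewer cells of a type and less RNA per cell cannot be told apart, and what part these differences have in the values below was not tested.

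Ribosomal protein mRNAs were slightly but broadly lower in KO leg muscle, whereas *Rpl3l* rose about 9-fold. Of the 84 genes, 83 passed the filter on low counts (*Rpl10l*, a testis paralogue of *Rpl10*, had 0 counts in all samples). Of these 83, 67 were lower in KO at an adjusted p under 0.05 (quasi-likelihood F-test of edgeR, p-values adjusted by Benjamini-Hochberg over 22071 genes), 1 was higher (*Rpl3l*) and 15 did not pass. Among all genes tested, 23.1% were lower and 21.9% were higher by the same rule, and among the 1852 genes with a mean of at least 100 CPM, 28.6% were lower. At the fold change over 1.5 that the study applied, 0 ribosomal protein genes were lower and only *Rpl3l* was higher, where 8.39% of all genes were lower and 8.31% were higher. The falls were thus numerous and small. In 66 genes every KO sample lay below every WT sample, an order seen in 28.5% of all genes, and in *Rpl3l* alone every KO sample lay above, an order seen in 27.3% of all genes.

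Among the 77 canonical genes, 64 were lower, 0 were higher (also 0 at an unadjusted p under 0.05, and 0 with DESeq2) and 13 did not pass, and 75 had a fold change below 0 on the log2 scale. Their median log2 fold change was -0.23, a level 15.03% lower in KO, against a median of -0.00 over all genes tested, and the quartiles were -0.30 and -0.20. Large and small subunits moved alike, with medians of -0.24 (38 of 46 lower) and -0.23 (26 of 31 lower). The ratio of large to small subunit counts was 1.32 ± 0.00196 among WT and 1.32 ± 0.0227 among KO samples (SD, n = 3), and the groups overlapped.

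**Figure D1:**
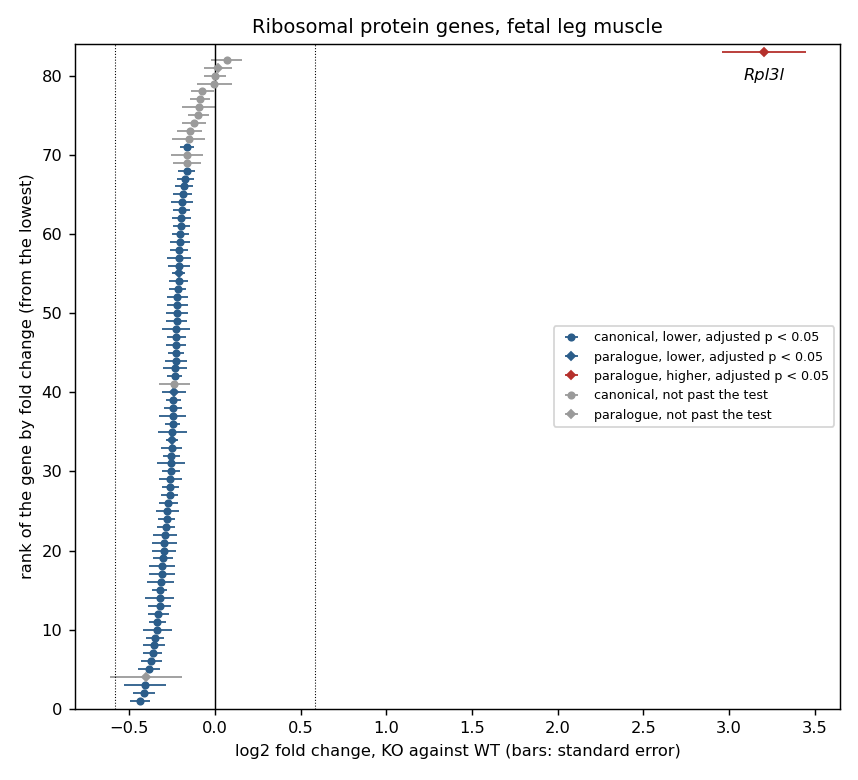
Log2 fold change of KO against WT (x axis, bars are the standard error) for the 83 tested ribosomal protein genes (y axis, ordered by fold change), with dotted lines at a fold change of 1.5 and diamonds for paralogues. The canonical genes lie between -0.44 and 0.07, and *Rpl3l* stands apart at 3.20.

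The start sites of the genes with the largest falls and of those with the smallest changes are shown here, because a pyrimidine tract at the start is the sequence feature the family is best known for. The RefSeq promoter table (GRCm38.p6) held 64 of the 84 genes. The windows below cover 10 bases before and 20 bases from the annotated start, 5′ to 3′, and capitals mark the longest run of at least 7 bases that begins with C and holds only C and T, where there is one. Among canonical genes with an entry, the first 5 fell the most and the last 3 changed the least.
*Rpl13a* (chr7:45128726-45128755, minus strand): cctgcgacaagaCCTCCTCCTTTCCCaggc
*Rps26* (chr10:128626487-128626516, minus strand): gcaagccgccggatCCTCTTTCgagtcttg
*Rpl41* (chr10:128549149-128549178, minus strand): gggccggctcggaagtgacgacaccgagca
*Rpl35* (chr2:39005112-39005141, minus strand): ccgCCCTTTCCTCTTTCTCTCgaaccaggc
*Rps2* (chr17:24720053-24720082, plus strand): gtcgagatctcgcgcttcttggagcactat
*Rpl39* (chrX:37085203-37085232, minus strand): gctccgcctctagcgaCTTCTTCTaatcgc
*Rpl24* (chr16:55966265-55966294, plus strand): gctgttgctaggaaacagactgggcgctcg
*Rpl28* (chr7:4792955-4792984, plus strand): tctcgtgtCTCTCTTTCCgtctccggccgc

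Such a run stood in the window of 23 of 57 canonical genes with an entry (40.4%), against 13.5% of the 27025 genes in the table. It stood in 19 of the 47 canonical genes that were lower (40.4%) and in 4 of the 10 that did not pass the test (40.0%). The letters CTCTTT, searched on the sense strand in the same window and often inside such a run, stood in 6 of the 57 (10.5%) and in 0.966% of all genes. Annotated starts differ between sources and can lie away from the true start, so a missing run says only that these letters are not in the window. In GENCODE M21 the genes shown above, except *Rpl24*, begin upstream of the window. Of those without a run, *Rps2* begins at 24718116 and *Rpl41*, on the minus strand, at 128549305.

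In the large subunit, the genes of all 3 proteins of the stalk, which recruits the elongation factors, were lower. *Rplp0*, the base of the stalk, had 1429, 1435 and 1455 CPM in WT and 1194, 1214 and 1196 CPM in KO (log2 fold change -0.26, SE 0.05, adjusted p = 0.00235). All KO samples lay below all WT samples, with little spread in either group. *Rplp1* was -0.32 (SE 0.08, adjusted p = 0.0115) and *Rplp2* was -0.23 (SE 0.08, adjusted p = 0.0492), and in *Rplp2* the groups overlapped, since 219 CPM in KO replicate 2 exceeded 216 CPM in WT replicate 3. The call of *Rplp2* was lost in 11 of 17 fits, 6 of them made by other processing and 5 by leaving out a sample, and that of *Rplp1* was lost in 1, with offsets for length and GC content.

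*Rpl5* and *Rpl11*, which carry the 5S rRNA into the large subunit and bind the p53 regulator Mdm2 when assembly fails, both fell. *Rpl11* had 471, 449 and 425 CPM in WT and 332, 377 and 361 CPM in KO (-0.33, SE 0.06, adjusted p = 0.00189). *Rpl5* had 842, 746 and 732 CPM in WT and 586, 674 and 636 CPM in KO (-0.29, SE 0.07, adjusted p = 0.00952). Neither pair of groups overlapped.

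The genes of the 4 proteins that reach toward the peptidyl transferase centre were all lower, with a median of -0.25 and no overlap between groups in any of them. *Rpl8* fell the most of these, from 557, 546 and 535 CPM in WT to 422, 453 and 412 CPM in KO (-0.35, SE 0.05, adjusted p = 0.000499). *Rpl4* was -0.21 (SE 0.05, adjusted p = 0.00997) and *Rpl10*, which is X-linked and completes the subunit in the cytoplasm, was -0.23 (SE 0.05, adjusted p = 0.00768). The calls of *Rpl4* and *Rpl10* were lost with upper-quartile factors, with both kinds of length offsets and without KO replicate 3. *Rpl3*, the partner of the muscle paralogue, is given with it below. Around the rim of the exit tunnel, 6 of 8 genes were lower (median -0.25), and *Rpl31* (-0.15) and *Rpl39* (-0.00) did not pass.

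In the small subunit, *Rpsa*, whose product also serves as a laminin receptor, had 1306, 1272 and 1307 CPM in WT and 1096, 1074 and 1017 CPM in KO (-0.29, SE 0.05, adjusted p = 0.00210). *Rps6*, the target of S6 kinase, had 868, 824 and 818 CPM in WT and 653, 673 and 664 CPM in KO (-0.34, SE 0.05, adjusted p = 0.000486). Both were clearly separated by genotype. *Rps27a*, made as a fusion with ubiquitin, was -0.32 (SE 0.08, adjusted p = 0.00801) and also did not overlap, but its call was lost with length offsets. Along the mRNA channel and decoding site, 5 of 6 genes were lower (median -0.24), and *Rps28* (-0.09, adjusted p = 0.467) did not pass.

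The largest falls past the test were seen in *Rpl13a*, *Rps26*, *Rps29*, *Rpl41* and *Rpl35*. *Rps26*, which lines the mRNA exit channel, had 1433, 1383 and 1391 CPM in WT and 1138, 1036 and 983 CPM in KO (-0.41, SE 0.06, adjusted p = 0.000682). *Rpl41*, the smallest ribosomal protein, had 741, 705 and 656 CPM in WT and 556, 556 and 499 CPM in KO (-0.38, SE 0.06, adjusted p = 0.00109). *Rpl35*, at the tunnel exit, had 693, 638 and 620 CPM in WT and 516, 519 and 472 CPM in KO (-0.37, SE 0.06, adjusted p = 0.000945). Those 3 genes were at least 22.7% lower with no overlap between groups. Other annotated genes (*Arpc5l* and *Wdr38*) covered 66.2% of the exon bases of *Rpl35*, so its level depends on how shared reads were counted.
*Rpl13a*, which is also known for a role in interferon-dependent control of translation, fell from 56.8, 58.0 and 56.3 CPM to 46.1, 41.2 and 39.0 CPM (-0.44, SE 0.06, adjusted p = 0.000235). Other annotated genes (*Gm45713*, *Mir5121* and *Snord33*) covered 35.4% of its exon bases and 55.2% of its 100-base stretches recur in other genes, so its level depends on how the authors' counting treated shared reads. *Rps29*, a protein of the head of the small subunit, had 255, 232 and 198 CPM in WT and 141, 197 and 178 CPM in KO (-0.41, SE 0.12, adjusted p = 0.0221). Its groups were separated by less than 1 CPM, between WT replicate 3 and KO replicate 2, and its call was lost in 5 of 17 fits, DESeq2 among them.

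The 13 canonical genes that did not pass included *Rpl23*, *Rpl24*, *Rpl28*, *Rpl31*, *Rpl35a* and *Rpl36* of the large subunit and *Rps20* of the small subunit. In 12 of the 13 the groups overlapped. In *Rpl36*, of the large subunit, WT had 125, 111 and 119 CPM and KO had 108, 126 and 122 CPM (0.00, SE 0.07, adjusted p = 0.995), a change with a 95% interval of -0.18 to 0.18 that leaves out the median fall of the family. *Rpl24*, which forms a bridge to the small subunit, had only 4.30, 4.11 and 4.67 CPM in WT and 4.98, 4.17 and 4.61 CPM in KO, and 80.1% of its 100-base stretches recur in other genes. Another annotated gene (*Gm28037*) covered 47.0% of its exon bases. Of the 4 X-linked genes only *Rpl10* was lower, and *Rpl36a*, *Rps4x* and *Rpl39* did not pass.

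Of the 19 genes of the set mutated in Diamond-Blackfan anaemia, an inherited failure of red cell production, 15 were lower (median -0.24), beside 64 of all 77 canonical genes. Per length, the most abundant canonical gene was *Rps15*, of the small subunit, with a level of 1254 CPM per kilobase of exon in WT and 1097 in KO. The least abundant was *Rps10*, with 2.27 and 1.91, and its exons overlap other annotated genes over 28.7% of their bases. Both were lower in KO, with log2 fold changes of -0.19 and -0.25, but the calls were lost in 4 and 9 of 17 fits.

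Within the family, the log2 fold change was at most weakly correlated with length, base composition, sequence uniqueness or level. Across the 77 canonical genes, the log2 fold change correlated with log2 exon length at r = -0.06 (Spearman's rho = 0.01), with GC content at r = -0.13 (rho = -0.20) and with the percentage of 100-base stretches shared with other genes at r = -0.04 (rho = -0.12). With the log2 of the mean CPM it correlated at r = -0.24 (rho = -0.11). These genes share libraries and often reads, so the correlations are descriptions. The median exon length was 1781 bases among canonical genes and 3341.5 bases among all genes tested. Correlations within the family thus do not show how length acts between the family and other genes. Nearly all canonical genes (73 of 77) share at least 1 such stretch with another gene, often an annotated pseudogene. The 4 that share none had a median of -0.24 with 3 lower, and the 22 that share over 50 percent had a median of -0.25 with 19 lower. The 294 named ribosomal protein pseudogenes held 0.156 ± 0.0101% of all WT counts and 0.124 ± 0.00952% of all KO counts.

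Sample by sample, canonical genes lay lower in each KO library. Relative to the WT mean, the median over the 77 genes was 0.05, -0.01 and -0.04 on the log2 scale in WT replicates 1 to 3, and -0.29, -0.18 and -0.27 in KO replicates 1 to 3. KO replicate 2 was thus nearest to WT. It was the highest of the KO samples in 59 of 77 genes, and WT replicate 1 was the highest of the WT samples in 53 of 77. KO replicate 1 fell below all WT samples in 76 of 77 genes, KO replicate 3 in 71 and KO replicate 2 in 63. Without KO replicate 3, 31 rather than 67 ribosomal protein genes were lower at an adjusted p under 0.05 (and 16.6% of all genes), while the canonical median was -0.22.

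The share of all counts that fell on canonical genes was 4.06%, 3.80% and 3.81% in WT, against 3.14%, 3.22% and 3.03% in KO. The means were 3.89 ± 0.149% and 3.13 ± 0.0965% (SD, n = 3), a ratio of 0.805, and the groups did not overlap. The difference of -0.757 percentage points had p = 0.10 in a two-sided exact permutation test, the smallest value that 3 against 3 samples allow. Counts of the mitochondrial genome and of the 10 most counted genes of each library took 13.2 ± 0.280% of WT counts and 15.4 ± 0.458% of KO counts. Without these 46 genes the canonical shares were 4.48 ± 0.160% and 3.70 ± 0.106%.

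**Figure D2:**
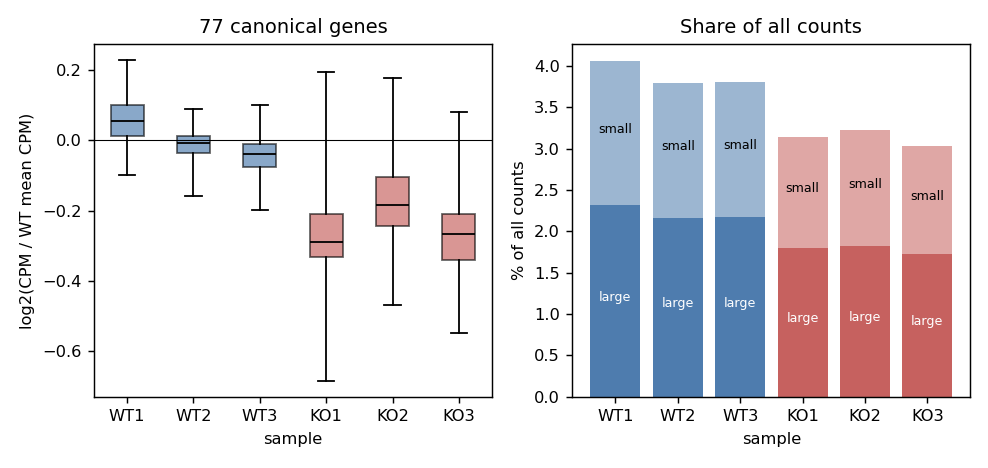
Left, log2 ratio of CPM to the WT mean for the 77 canonical genes in each sample (boxes are quartiles with the median, whiskers the lowest and highest gene); right, the share of all counts (%) on large- and small-subunit genes, one bar per sample. The medians of the KO samples lie between -0.29 and -0.18, and the KO shares between 3.03% and 3.22% against 3.80% to 4.06% in WT.

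*Rpl3l* (chr17:24727820-24736143, plus strand, mm10) rose in every KO sample. The WT libraries held 161, 82 and 167 counts of it and the KO libraries 844, 1510 and 1448 counts, or 1.70, 0.992 and 1.58 CPM against 9.005, 15.8 and 14.9 CPM. KO replicate 1 was the lowest of the KO samples and still over 5 times the highest WT sample. The log2 fold change was 3.20 (SE 0.24, adjusted p = 6.28e-06), a 9.21-fold higher level with a 95% interval of 2.52 to 3.88 on the log2 scale. It was the 29th largest rise among the 22071 genes tested. No 100-base stretch of *Rpl3l* recurs in another gene, its exons overlap no other gene, and the longest run of bases it shares with the *Rpl3* transcript is 22, well under the read length of 150.

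*Rpl3*, which is made in all cells, moved the other way. It had 711, 742 and 724 CPM in WT and 577, 620 and 595 CPM in KO (-0.28, SE 0.05, adjusted p = 0.00154), with no overlap. Per kilobase of exon, the level of *Rpl3l* was 0.867 CPM in WT but 8.06 CPM in KO, and that of *Rpl3* was 228 and 188 CPM. *Rpl3l* therefore made up 0.460%, 0.258% and 0.421% of the pair in WT, against 2.93%, 4.71% and 4.61% in KO (means 0.380 ± 0.107% and 4.08 ± 0.9998%, SD, n = 3), with no overlap and p = 0.10 in the two-sided exact permutation test, again the smallest value possible. Even in KO, *Rpl3* remained the major form. Unlike *Rpl3l*, *Rpl3* has 79.4% of its 100-base stretches recurring in other genes, 7 pseudogenes among them. Its level, and with it the size of these shares, thus depends on how shared reads were counted. With the lengths of the longest coding transcripts in place of all exon bases, the shares were 0.193 ± 0.0547% and 2.12 ± 0.528%. The mature muscle markers had a median log2 fold change of 2.50, with *Mybpc2* (4.31) and *Pvalb* (4.19) above *Rpl3l* and *Myh1* at 3.10, and the muscle fiber markers had a median of 1.24. The summed level of the mature muscle markers, mostly *Atp2a1* (1.54), rose 3.42-fold and that of the muscle fiber markers 2.28-fold, and their part in the rise of *Rpl3l* was not tested.

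**Figure D3:**
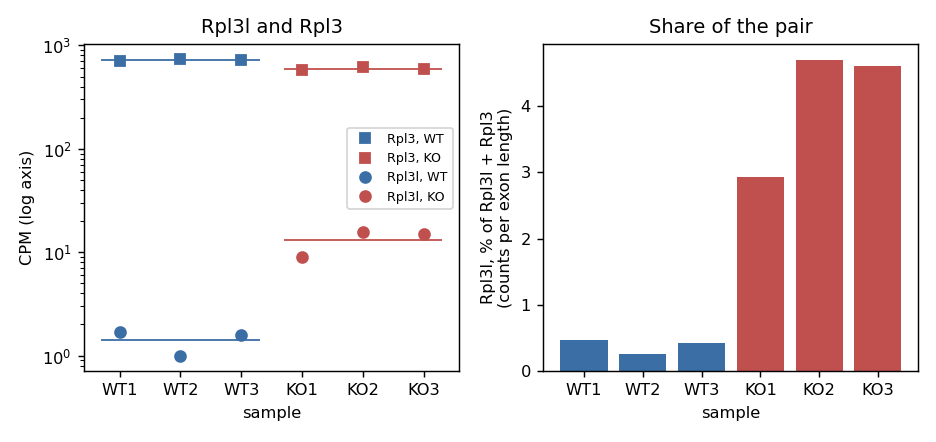
Left, CPM of *Rpl3* (squares) and *Rpl3l* (circles) in each sample on a log axis, with horizontal lines at the group means; right, *Rpl3l* as a percentage of *Rpl3l* plus *Rpl3* after division of counts by exon length, one bar per sample. *Rpl3l* lies between 0.992 and 1.70 CPM in WT and between 9.005 and 15.8 CPM in KO, and its share of the pair reaches 4.71%.

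The 250 bases before the annotated start of *Rpl3l* are shown because this gene had the only large change of the family, and E-boxes (CANNTG, the letters bound by MyoD-type factors) are in capitals. They lie at chr17:24727576-24727825 on the plus strand of GRCm38.p6.
*Rpl3l* before the start: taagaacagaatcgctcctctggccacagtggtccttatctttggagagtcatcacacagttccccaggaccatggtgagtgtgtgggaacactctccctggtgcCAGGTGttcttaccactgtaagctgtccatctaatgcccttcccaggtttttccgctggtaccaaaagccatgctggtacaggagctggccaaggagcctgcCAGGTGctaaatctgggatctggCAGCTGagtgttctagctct
At the start itself: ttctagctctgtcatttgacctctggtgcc

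The stretch holds 3 E-boxes, beginning 145, 43 and 20 bases before the start, and the last of these reads CAGCTG. The promoter table lists 2 starts for *Rpl3l*, and the one listed first was used, as for every gene. In GENCODE M21 the gene begins at 24727820, inside the end of the stretch, so the distances hold for the start used. An E-box stood in the same 250 bases of 66.0% of all genes in the table and of 47.4% of canonical genes, and CAGCTG in 12.8% and 3.51%. Both motifs match on both strands alike, and CAGCTG is itself an E-box. The MEF2 motif was not found in the stretch (0 matches), and 0.518% of all genes hold it. The window at the start of *Rpl3l* held no pyrimidine run of the kind searched. These matches are descriptions of the letters, and binding was not measured.

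*Rpl3l* also has a canonical gene as its near neighbour. *Rps2* ends 5890 bases upstream on the same strand, with *Ndufb10*, of respiratory complex I, as the single annotated gene between them. *Rps2* had 715, 668 and 646 CPM in WT and 503.98, 543 and 531 CPM in KO (-0.36, SE 0.06, adjusted p = 0.000648), and *Ndufb10* was higher in KO (0.72, SE 0.06, adjusted p = 1.91e-05). These 3 neighbours did not move together.

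Among the other 5 tested paralogues, 0 rose past the test and 3 fell. *Rpl7l1*, a relative of *Rpl7* that acts in ribosome assembly, had 79.0, 76.9 and 76.2 CPM in WT and 63.9, 66.4 and 64.7 CPM in KO (-0.25, SE 0.04, adjusted p = 0.000367), and *Rpl7* itself was -0.17 (SE 0.05, adjusted p = 0.0230). *Rpl22l1*, which is known to be repressed by the *Rpl22* product, had 23.8, 23.0 and 21.6 CPM in WT and 17.7, 20.9 and 19.2 CPM in KO (-0.24, SE 0.07, adjusted p = 0.0198), beside -0.30 in *Rpl22* (SE 0.07, adjusted p = 0.00821). *Rps27l*, a p53-responsive relative of *Rps27*, had 48.4, 47.1 and 45.8 CPM in WT and 41.7, 40.0 and 40.2 CPM in KO (-0.21, SE 0.04, adjusted p = 0.00182), beside -0.27 in *Rps27* (SE 0.05, adjusted p = 0.00279). These 3 paralogues moved down with their partners, and in each the groups did not overlap. The calls were lost in 6 of 17 fits for *Rpl22l1*, in 7 for *Rpl7*, in 1 for *Rps27l* (length offsets) and in 1 for *Rpl22* (without KO replicate 3).
*Rpl39l*, known from testis, had 5.81, 6.30 and 5.60 CPM in WT and 6.09, 6.39 and 5.46 CPM in KO (0.02, SE 0.08, adjusted p = 0.872), and *Rpl39* was -0.00 (SE 0.10, adjusted p = 0.981). *Rpl36al*, a relative of *Rpl36a*, had 0.839 to 1.88 CPM over all 6 samples (-0.40, SE 0.21, adjusted p = 0.152), and *Rpl36a* was -0.24 (SE 0.09, adjusted p = 0.0650). In these pairs neither gene passed the test. Per kilobase of exon, each partner stood above its paralogue: in WT the level was 280 CPM for *Rpl7* and 22.1 for *Rpl7l1*, 99.3 for *Rpl22* and 11.4 for *Rpl22l1*, and 362 for *Rps27* and 57.7 for *Rps27l*.

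When the libraries were scaled on the canonical genes themselves, so that a change is read relative to the rest of the family, the median of all genes moved from -0.00 to 0.23 and 6 ribosomal protein genes departed from the others. Among all 22071 genes tested, 10046 were higher and 8.87% were lower in this fit. *Rpl3l* was higher by 3.44 (SE 0.21, adjusted p = 7.51e-08). *Rpl24* (0.31, adjusted p = 0.0344), *Rpl39l* (0.25, adjusted p = 0.0321), *Rpl36* (0.24, adjusted p = 0.00716) and *Rpl39* (0.23, adjusted p = 0.0476) were higher and *Rpl13a* (-0.20, adjusted p = 0.0353) was lower. The other 77 tested genes did not depart from the family by this test.

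Genes that build or use ribosomes were read from lists that the symbol rule does not cover. Among ribosomal protein genes with other names, *Fau* (-0.24, SE 0.05, adjusted p = 0.00413) and *Rack1* (-0.19, SE 0.06, adjusted p = 0.0253) were lower. Of 59 ribosome biogenesis genes, 50 were lower and 0 were higher, with a median log2 fold change of -0.30. *Nhp2*, a protein of the H/ACA particles that guide pseudouridylation, fell past the 1.5-fold limit, from 40.1, 38.8 and 39.9 CPM to 23.6, 22.9 and 22.2 CPM (-0.79, SE 0.04, adjusted p = 7.26e-07). The biogenesis genes thus had a median somewhat below that of the ribosomal protein genes, a difference that was not tested. Of 36 initiation factors, 25 were lower and 1 was higher (median -0.18), and of 14 elongation and termination genes, 9 were lower and 1 was higher (median -0.25). Of 20 genes of growth control (the mTOR pathway and Myc among them), 7 were lower and 4 were higher, with a median of -0.01. Beside these lists, 23.1% of all genes tested were lower and 21.9% were higher.

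The gene that was higher among the elongation factors was *Eef1a2*, the form of eEF1A found in muscle and neurons, which makes it a second pair of a general and a muscle form. *Eef1a2* had 16.7, 14.3 and 17.0 CPM in WT and 69.0, 80.3 and 79.1 CPM in KO (2.25, SE 0.08, adjusted p = 7.81e-08), with KO far above WT in every sample. *Eef1a1*, the general form, had 6967, 7583 and 7319 CPM in WT and 6710, 6992 and 6898 CPM in KO (-0.09, SE 0.07, adjusted p = 0.348), and the groups overlapped. Per exon length, *Eef1a2* made up 0.263 ± 0.0329% of the pair in WT against 1.31 ± 0.0809% in KO (SD, n = 3, p = 0.10 in the two-sided exact permutation test). In both pairs the muscle form stayed the minor one.

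**Figure D4:**
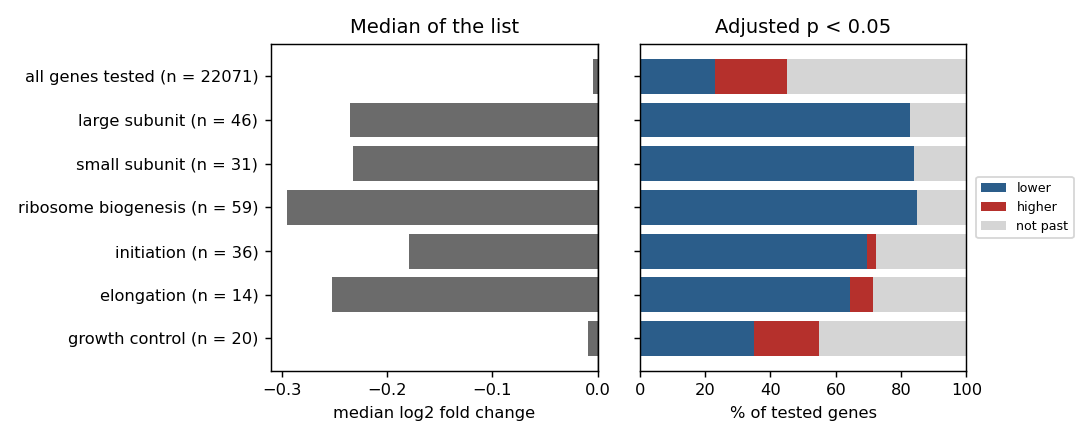
Left, the median log2 fold change of KO against WT for all genes tested and for lists of genes of the ribosome and of translation (n is the number tested); right, the percentage of each list that was lower, higher or not past an adjusted p of 0.05. The 2 subunits and ribosome biogenesis have medians between -0.30 and -0.23, and growth control lies at -0.01 like all genes together.

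The number of genes called lower depended on the fit, among ribosomal protein genes and among all genes alike. With upper-quartile factors 41 ribosomal protein genes and 16.9% of all genes were lower, with medians of -0.17 over the canonical genes and 0.06 over all genes. With library size alone 74 ribosomal protein genes and 29.3% of all genes were lower, with medians of -0.30 and -0.07. The canonical median lay 0.23 below that of all genes under both scalings and with the factors used throughout. A change of scaling shifts all genes nearly alike, so this equal distance is given by construction and is no separate result. With offsets for gene length 29 ribosomal protein genes and 18.1% of all genes were lower, the medians were -0.13 and 0.06, and the distance was 0.19. Over the 17 fits other than the scaling on the canonical genes, 24 genes were lower every time, among them *Rpl3*, *Rpl5*, *Rpl8*, *Rpl11*, *Rplp0*, *Rpsa*, *Rps6*, *Rps26*, *Rpl13a*, *Rpl35* and *Rpl41*. *Rpl3l* was higher in every fit, with log2 fold changes of 3.01 to 3.48.

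**Figure D5:**
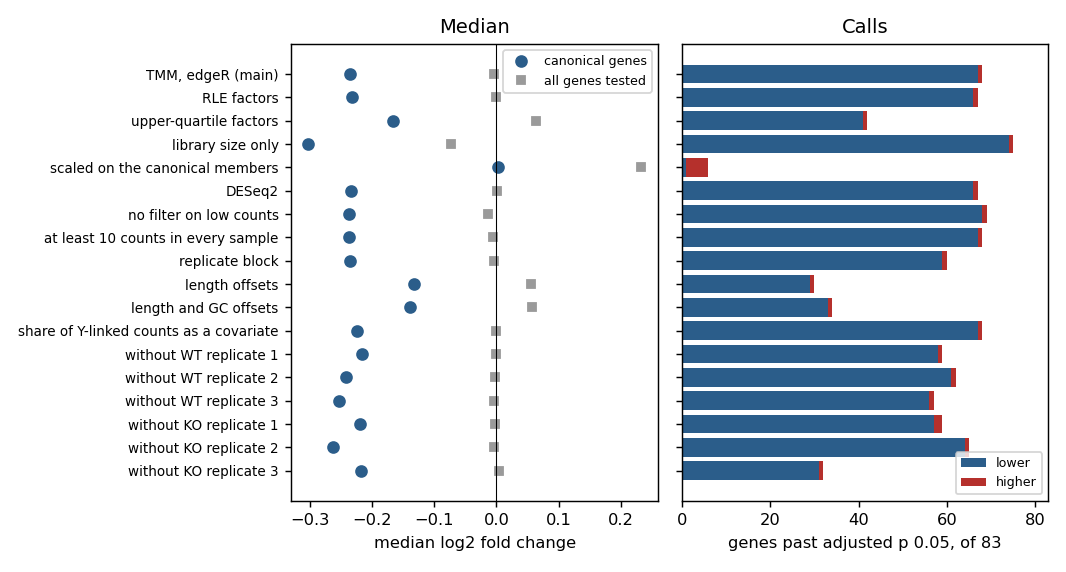
Left, the median log2 fold change over the canonical genes (circles) and over all genes tested (squares) in each fit; right, the number of the 83 tested ribosomal protein genes that were lower or higher at an adjusted p under 0.05. The canonical median lies below that of all genes in every fit, at a distance that a change of scaling alone leaves the same. The count of lower genes ranges from 29 to 74 outside the scaling on the canonical genes.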

How the data were processed

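Leg muscle RNA-seq of 3 WT and 3 *SYISL* KO samples was used. Per the methods and the labels, the authors trimmed 150 bp paired-end reads with Trim Galore 0.6.6, mapped them to mm10 with HISAT2 2.2.1 and deposited raw counts per gene from featureCounts 2.0.1. The annotation, the strand setting and the treatment of reads with several matches are not given in the sources used here, so reads shared with pseudogenes or overlapping genes may be lost or misplaced. Gene IDs were matched to GENCODE M21 (55227 of 56262, and 0.00373% of counts lay on the others).

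The counts of all genes were fitted with edgeR 4.0.16 in R 4.3.3 (filterByExpr, TMM, quasi-likelihood F-test on genotype, Benjamini-Hochberg over 22071 genes), and CPM (counts per 1000000) uses TMM-scaled library sizes. Standard errors (SE) are the log2 coefficient over the square root of F. Shares were compared by two-sided exact permutation tests. The script was tested on simulated data. Lengths are unions of exons, and 95% intervals of fold changes use the t distribution with 4 degrees of freedom. Genes were named by these rules: every paralogue with its partner, genes past a fold change of 1.5, the 5 largest rises and falls past the test, the stalk, 5S and peptidyl transferase groups, *Rpsa*, *Rps6*, *Rps27a*, and the most and least abundant. *Rpl23*, *Rpl24*, *Rpl28*, *Rpl31*, *Rpl35a*, *Rpl36*, *Rps2*, *Rps4x*, *Rps20*, *Rps28*, *Ndufb10*, *Synpo2* and 4 mature muscle markers were named after their values were seen. Some values of single genes are not reported here. The genes and lists were chosen with earlier results of these data known.

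Alternatives were RLE, upper-quartile, library-size and canonical-gene scaling, DESeq2 1.42.0, other filters, a replicate block, length offsets (splines with 5 degrees of freedom), other denominators and lengths, and leaving out each sample. Offsets for length and GC content and a covariate for Y-linked counts were added after seeing the data.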

Additional observations from a re-analysis of the deposited data

How the results depend on the processing

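The number of ribosomal protein genes lower in KO moved from 67 to 41 with upper-quartile factors, to 29 with length offsets, to 33 with length and GC offsets and to 1 with scaling on the canonical genes, which also raised the number higher from 1 to 5. Beside these, 16.9%, 18.1%, 19.0% and 8.87% of all genes were lower, rather than 23.1%. With scaling on the canonical genes, 10046 of all 22071 genes were higher. The canonical median was -0.17 with upper-quartile factors, -0.13 with length offsets, -0.14 with length and GC offsets and -0.30 with library size alone, rather than -0.23, beside medians of all genes of 0.06, 0.06, 0.06 and -0.07, rather than -0.00. Leaving out 1 sample gave 31 to 64 lower genes (31 without KO replicate 3) and 1 to 2 higher genes (2 without KO replicate 1, where *Rpl39* was added), canonical medians of -0.26 to -0.22, and log2 fold changes of *Rpl3l* of 3.01 to 3.42. In those fits 16.6% to 22.4% of all genes were lower. The share of *Rpl3l* in the pair rose by 3.70 percentage points per exon length and by 1.93 per coding transcript length. The cause was not tested, except that scaling on the canonical genes sets their own mean change to 0 by construction. The other 104 alternative values kept their direction and moved by less than these limits (1.5 times for a count, 1 SD between replicates for a share or a median) and, for *Rpl3l*, stayed past the test. Among them were 66 lower genes with DESeq2 (18.5% of all genes) and 67 with the Y-linked covariate (24.7% of all genes).

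With a replicate block, 59 ribosomal protein genes and 20.5% of all genes were lower. In that fit 1 ribosomal protein gene was higher, the canonical median was -0.23 and *Rpl3l* was 3.18 (adjusted p = 0.000124). Same-numbered WT and KO samples deviated from their group means with correlations of -0.20, -0.13 and 0.05, and they share only a number. Reads shared with pseudogenes limit how far the level of a single gene can be trusted.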
